A study of Mus musculus with 8 samples.

Results

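The genes described here are the immediate early genes *Fos*, *Fosb*, *Fosl1*, *Jun*, *Junb*, *Jund*, *Egr1*, *Nr4a1*, *Ier2* and *Ier3*, taken by gene symbol from the table of expression values. Of these 10, 9 had a row among the 14954 genes of the table, and *Fosb* was not analysed here. Expression was measured by RNA-seq in 4 Bcl6-induced and 4 control cultures of cortical-type neural progenitors derived from mouse embryonic stem cells. All 8 cultures came from A2lox.Cre Bcl6 stem cells, which carry a Bcl6 transgene behind a tetracycline-inducible promoter, and the labels name no further line or clone. Induced cultures received 1 µg/ml doxycycline for 24 h and control cultures received DMSO, and both were at differentiation day 12. Cells of both groups had been grown on irradiated mouse fibroblasts as stem cells and differentiated in defined medium, to which 400 ng/ml cyclopamine, a blocker of hedgehog signalling, was added for the earlier days. Doxycycline was not given to cells without the transgene in these samples, so effects of Bcl6 and of doxycycline cannot be told apart.

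Immediate early genes are transcribed within minutes of a stimulus, without prior protein synthesis, and most encode transcription factors. Fos proteins (Fos, Fosb, Fosl1) bind DNA only as dimers with Jun proteins (Jun, Junb, Jund), and these dimers make up the factor AP-1. Egr1 is a zinc finger activator, Nr4a1 is an orphan nuclear receptor, and Ier2 and Ier3 are small proteins named for their early response. In neurons, Fos, Egr1 and Nr4a1 are widely used as marks of recent activity. Bcl6 is a zinc finger repressor of transcription studied above all in B cells of the germinal centre, and its protein has been shown to bind Jun proteins.

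Bcl6 itself had 393, 422, 427 and 325 CPM (reads per M of the library total) in induced libraries 1 to 4, against 6.61, 6.01, 7.12 and 6.21 CPM in control libraries 1 to 4. The groups were far apart, and induced library 4 was the lowest of its group. Its log2 fold change of 5.90 ± 0.10 (SE) had an adjusted p of 6.8e-11 by limma, and transgene and endogenous gene were counted together. The libraries rested on 10.33 to 15.02 M recovered reads in the induced group and 9.42 to 9.74 M in the control group, so every induced library was deeper than every control. Of the defining markers of cortical-type progenitors, 10 were measured, none of them at 0 in any library. Control library 1 stood apart from the other controls by transcript length. Of 10 classes of equal size by length, the genes with the shortest transcripts lay in it at a median of 0.42 (log2) from the mean of the other controls, and those with the longest at -0.56. The labels number the differentiations and do not say how independent the cultures were, so p-values describe only the spread among these 8 libraries.

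Genes of AP-1 and of a nuclear receptor were higher after induction: *Junb* by 1.84-fold, *Fos* by 1.47-fold and *Nr4a1* by 1.38-fold. These were 3 of the 9 measured genes, each with every induced library above every control. None of the 9 was lower, also at an unadjusted p under 0.05, where 4 were higher, beside 14.8% of all genes higher and 8.89% lower at that unadjusted threshold. Across all 14954 genes, 6.81% were called at a limma adjusted p under 0.05 (Benjamini-Hochberg over all genes), 4.55% higher and 2.26% lower, and in 10.8% of genes every induced library was above every control (in 6.32% below). The fold change of 8 of the 9 genes was above 0, with a median of 0.46 (log2) beside 0.03 over all genes. *Jun*, *Egr1* and *Ier2* had fold changes between -0.13 and 0.04. The count of 3 rested on single libraries: 4 genes were called without control 1, 2 without control 3 or without control 4, and only *Junb* without induced 1, induced 2, induced 3 or control 2. The share of all genes called higher was 7.66% without control 1, 3.95% without control 3, 3.99% without control 4, 3.38% without induced 4 (3 genes called), and 1.41%, 1.62%, 3.02% and 1.78% without induced 1, 2 and 3 and control 2.

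**Figure D1:**
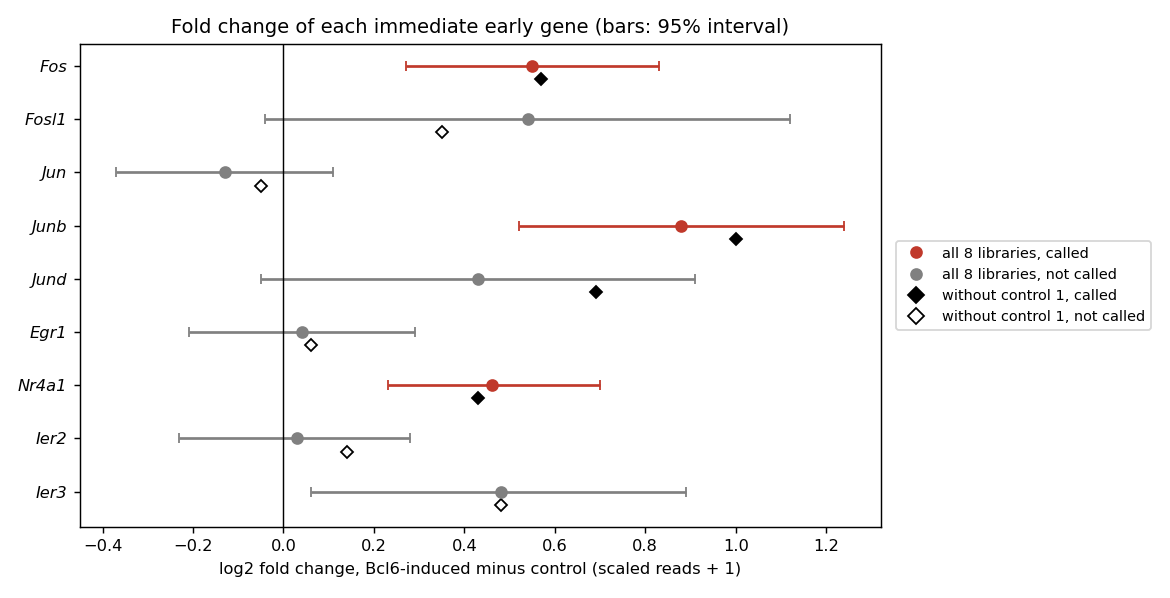
Log2 fold change (Bcl6-induced minus control, on scaled reads + 1) of the 9 measured immediate early genes, with the 95% interval as bars (limma, 4 induced and 4 control libraries). Circles are the values over all 8 libraries, in red where the adjusted p was under 0.05, and diamonds the values without control 1, filled where called. *Junb* is farthest to the right at 0.88, and *Jund* stands at 0.43 with all libraries and at 0.69 without control 1.

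The promoters of the 3 genes that rose are shown with that of *Jun*, a close relative of *Junb* that was not called. Each runs 5′ to 3′ on the gene's strand from 250 bases before to 50 bases after the RefSeq start (GRCm38.p6), and capitals mark the motif found. The windows lie at chr12:85473640-85473939 (plus strand) for *Fos*, chr8:84978699-84978998 (minus strand) for *Junb*, chr15:101266596-101266895 (plus strand) for *Nr4a1* and chr4:95052173-95052472 (minus strand) for *Jun*.
Fos: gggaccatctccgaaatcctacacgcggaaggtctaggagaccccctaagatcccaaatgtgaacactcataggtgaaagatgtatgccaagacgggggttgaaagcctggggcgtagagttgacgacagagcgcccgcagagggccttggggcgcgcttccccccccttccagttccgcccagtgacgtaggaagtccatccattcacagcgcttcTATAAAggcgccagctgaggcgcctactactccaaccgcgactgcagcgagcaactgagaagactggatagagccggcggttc
Junb: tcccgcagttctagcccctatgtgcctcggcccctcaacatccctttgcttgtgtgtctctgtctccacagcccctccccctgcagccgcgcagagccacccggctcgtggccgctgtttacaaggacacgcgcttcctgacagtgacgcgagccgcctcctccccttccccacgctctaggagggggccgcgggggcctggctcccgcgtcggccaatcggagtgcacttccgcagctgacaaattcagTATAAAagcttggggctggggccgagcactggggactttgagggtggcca
Nr4a1: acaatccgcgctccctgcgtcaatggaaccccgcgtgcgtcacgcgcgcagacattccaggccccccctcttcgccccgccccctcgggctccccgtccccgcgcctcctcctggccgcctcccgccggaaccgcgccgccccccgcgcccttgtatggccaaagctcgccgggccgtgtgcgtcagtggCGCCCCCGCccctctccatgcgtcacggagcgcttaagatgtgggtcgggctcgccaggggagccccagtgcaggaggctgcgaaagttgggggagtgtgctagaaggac
Jun: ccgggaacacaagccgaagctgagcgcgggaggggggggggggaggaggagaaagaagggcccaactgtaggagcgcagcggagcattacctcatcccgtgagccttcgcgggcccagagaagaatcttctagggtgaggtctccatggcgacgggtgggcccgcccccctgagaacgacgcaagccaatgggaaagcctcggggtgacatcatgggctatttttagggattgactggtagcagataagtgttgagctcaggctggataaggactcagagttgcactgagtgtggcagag
These windows were searched on both strands for TATAAA, for the CArG box of serum response factor, for TGACGTCA (bound by CREB and ATF factors), TGANTCA (AP-1), GCGNGGGCG (Egr factors) and TTCCTNGAA (Bcl6 and STAT factors). *Fos* held TATAAA from base -33 to base -28, counted with the start as 0. *Junb* held TATAAA from base 0 to base 5. In the gene coordinates given below, *Junb* starts at 84978718, downstream of the RefSeq start, so this TATAAA lies upstream of that start. *Nr4a1* held GCGNGGGCG on the opposite strand from base -60 to base -52, and the *Jun* window held none of the 6 motifs. The RefSeq start of *Nr4a1* lies inside the gene as given below (101254269 to 101274795), downstream of its first base. Among 32851 mouse promoter windows of this length, TATAAA was in 13.6%, TGANTCA in 7.81%, GCGNGGGCG in 5.55%, TGACGTCA in 1.79%, the CArG box in 1.63% and TTCCTNGAA in 1.59%. No window shown held more than 1 match, so no matches overlapped. Only full matches to these patterns were counted, and bases outside the windows were not searched. A motif not found here may thus still be present farther away or in a variant form.

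Among the Fos genes, *Fos* was higher in every induced library. *Fos* (ENSMUSG00000021250, mm10 chromosome 12, 85473890 to 85477273, plus strand) had 8.52, 8.37, 7.72 and 6.92 CPM in induced libraries 1 to 4, against 5.56, 5.21, 5.07 and 5.56 CPM in control libraries 1 to 4. The controls lay close together, and the lowest induced library was above the highest control. Its log2 fold change was 0.55 ± 0.13 (SE), with a 95% interval of 0.27 to 0.83 and a limma adjusted p of 0.029. Between 71 and 128 reads lay behind each induced value and between 49 and 53 behind each control value. The call was lost without induced 1 (adjusted p = 0.11), induced 2 (0.10), induced 3 (0.066), control 2 (0.085) or control 3 (0.054), with fold changes of 0.51 to 0.61 over all 8 omissions.

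*Fosl1*, which encodes Fra-1, a Fos relative without a transactivation domain, was the gene with the fewest reads. It had 1.8, 1.9, 1.6 and 1.4 CPM in induced libraries 1 to 4, against 0.752, 1.5, 1.25 and 1.15 CPM in control libraries 1 to 4. The groups overlapped through control 2, and control 1 was the lowest of all 8. Only 14 to 27 reads lay behind the induced values and 7 to 14 behind the control values. The log2 fold change of 0.54 ± 0.26 had a 95% interval of -0.04 to 1.12 and a limma adjusted p of 0.24. The 3′ part of *Fosl1* overlaps *Ccdc85b* on the opposite strand, which averaged 8.32 ± 1.62 CPM in induced and 7.12 ± 3.38 CPM in control libraries (SD, n = 4 each, limma adjusted p = 0.53).

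Among the Jun genes, *Junb* had the largest fold change of the 9 genes and *Jun* was the only gene of the 9 with a mean lower in induced cultures. *Junb* (ENSMUSG00000052837, chromosome 8, 84974484 to 84978718, minus strand), which activates transcription less than Jun and can oppose it, had 23.6, 24.2, 24 and 18 CPM in induced libraries 1 to 4. The control libraries had 15.5, 9.62, 13.5 and 10.6 CPM of *Junb*. Induced library 4 was well below the other induced libraries and still above the highest control, control 1. For *Junb* the log2 fold change was 0.88 ± 0.16 (SE), with a 95% interval of 0.52 to 1.24 and a limma adjusted p of 0.012. *Junb* was called without each of the 8 libraries in turn, with fold changes of 0.77 to 1.00 and a highest adjusted p of 0.048 without induced 1. The end of *Junb* overlaps *Prdx2*, a peroxiredoxin gene on the opposite strand, which averaged 278 ± 16.9 CPM in induced and 309 ± 50 CPM in control libraries (SD, n = 4 each). The log2 fold change of *Prdx2* was -0.14 ± 0.11, with a limma adjusted p of 0.44. The library kit keeps strand, and whether counting used it is not given in the sources used here.

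*Jun* (ENSMUSG00000052684, chromosome 4, 95049034 to 95052222, minus strand), a strong activator among AP-1 proteins, had 54.3, 56.7, 49.4 and 43.6 CPM in induced libraries 1 to 4. The control libraries had 65.3, 50.6, 56.3 and 50.7 CPM of *Jun*. The groups overlapped, with control 1 the highest and induced 4 the lowest of all 8. *Jun* had a log2 fold change of -0.13 ± 0.11, with a 95% interval of -0.37 to 0.11 and a limma adjusted p of 0.51. The antisense gene *Junos*, which overlaps the start of *Jun*, had 4 to 12 reads per induced library and 12 to 19 per control library. *Junos* averaged 0.689 ± 0.38 CPM in induced and 1.59 ± 0.274 CPM in control libraries (SD, n = 4 each), a log2 fold change of -1.27 ± 0.36 with a limma adjusted p of 0.060. *Junos* CPM was lower in each induced library than in each control, and the gene was called without induced 4 (adjusted p = 0.025).

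*Jund* (ENSMUSG00000071076, chromosome 8, 70698949 to 70700616, plus strand), the Jun gene usually expressed most steadily, had 32.2, 29.2, 27.9 and 25.1 CPM in induced libraries 1 to 4. The control libraries had 36.5, 17.2, 16.9 and 18.9 CPM of *Jund*. Control 1 was the highest of all 8 libraries, and the other controls lay below every induced library. Over all 8 libraries the log2 fold change was 0.43 ± 0.22, with a limma adjusted p of 0.26. Without control 1 it was 0.69, with an adjusted p of 0.0030, and *Jund* was then called. In control 1, *Jund* lay 1.05 (log2) above the mean of the other controls, beside a median of 0.31 for the genes of its class by transcript length. The part of transcript length in this result was not tested.

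**Figure D2:**
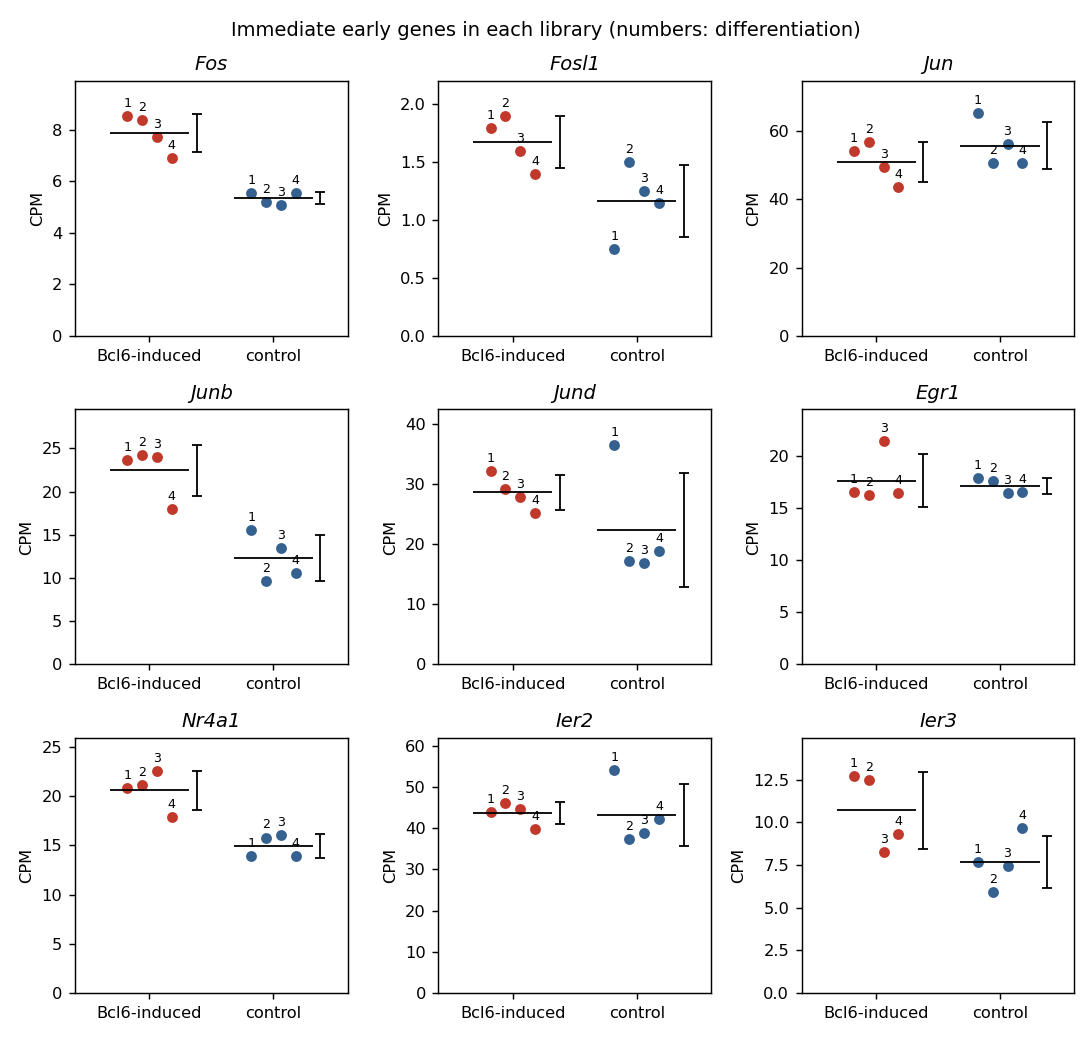
Expression in CPM (vertical axes, from 0) of the 9 measured immediate early genes in each library, induced left in red and control right in blue, numbered by differentiation, with the mean as a line and the SD as a bar (n = 4 each). *Fos*, *Junb* and *Nr4a1* have all induced points above all control points, and control 1 is the highest point of *Jund* at 36.5 CPM.

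Among the AP-1 transcripts summed here, the shares of *Jun*, *Junb* and *Fos* did not overlap between the groups. Shares were taken of the summed CPM per kilobase of the longest transcript over *Fos*, *Fosl1*, *Jun*, *Junb* and *Jund*. *Fosl2*, a further AP-1 gene with 18 CPM in induced and 10.1 CPM in control libraries on average, was left out of the sum. The measure was chosen after the values were seen and is given without a test. *Junb* made up 24%, 24.9%, 26.5% and 23.4% of the sum in induced libraries 1 to 4, against 15.9%, 15.3%, 19.5% and 16.2% in control libraries 1 to 4. *Jun* made up 31.3%, 33.1%, 31% and 32% in induced libraries, against 37.9%, 45.6%, 46.1% and 43.7% in control libraries. Neither share overlapped between the groups, with *Junb* taking more and *Jun* less of the sum after induction. Shares of 1 sum are tied, so a gene's share can fall without a change in its own level. *Jun* itself was not called (log2 fold change -0.13, limma adjusted p = 0.51). Control 1, which stood apart by transcript length, had the lowest control shares of *Jun* and *Fos* and the highest of *Jund*. The part of length in these shares was not tested. The ratio of *Junb* to *Jun* per kilobase was 0.776 ± 0.0549 in induced and 0.387 ± 0.0421 in control libraries (SD, n = 4 each). The share of *Jund* overlapped, at 32.6% to 35.5% in induced and 26.4% to 40.6% in control libraries. *Fos* took 7.33% to 7.69% of the sum in induced and 4.89% to 7.26% in control libraries. The *Fos* ranges did not overlap, and they lay close together. The sum itself overlapped, at 42.7 to 54.4 CPM per kilobase in induced and 34.8 to 54.0 in control libraries, and control 1 was the highest control. These are shares of RNA, and protein and dimers were not measured.

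**Figure D3:**
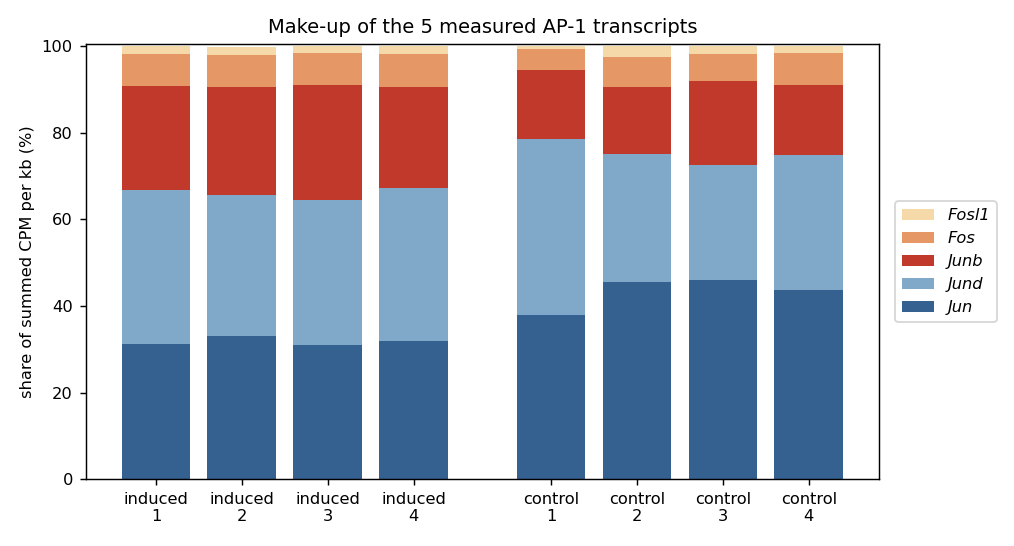
Share of each AP-1 transcript in the summed CPM per kilobase of 5 genes (vertical axis, percent), with a bar for each of the 4 induced (left) and 4 control (right) libraries. The dark blue *Jun* segment is 31% to 33.1% in induced and 37.9% to 46.1% in control libraries, and the red *Junb* segment is 23.4% to 26.5% in induced and 15.3% to 19.5% in control libraries.

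*Nr4a1* was higher after induction and *Egr1* was not called. *Nr4a1* (ENSMUSG00000023034, chromosome 15, 101254269 to 101274795, plus strand), also called Nur77, had 20.8, 21.1, 22.6 and 17.9 CPM in induced libraries 1 to 4, against 13.9, 15.8, 16.1 and 13.9 CPM in control libraries 1 to 4. The groups did not overlap, with induced 4 nearest to the controls. For *Nr4a1* the log2 fold change was 0.46 ± 0.11 (SE), with a 95% interval of 0.23 to 0.70 and a limma adjusted p of 0.029. The call was lost without induced 1 or induced 2 (adjusted p = 0.096 for each), induced 3 (0.078), control 2 (0.064) or control 4 (0.063), with fold changes of 0.42 to 0.53 over all 8 omissions.

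*Egr1* (ENSMUSG00000038418) had 16.5, 16.2, 21.4 and 16.4 CPM in induced libraries 1 to 4, against 17.9, 17.6, 16.4 and 16.5 CPM in control libraries 1 to 4. Induced 3 was the highest of all 8, and the other induced libraries lay within or just below the range of the controls. The log2 fold change of 0.04 ± 0.11 had a limma adjusted p of 0.88 and was -0.02 under upper quartile scaling. Its 95% interval of -0.21 to 0.29 overlapped those of *Fos* (0.27 to 0.83) and *Nr4a1* (0.23 to 0.70). It did not overlap that of *Junb* (0.52 to 1.24). Whether *Egr1* differed from these genes in response was not tested.

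The small early response genes *Ier2* and *Ier3* were not called. *Ier2* (ENSMUSG00000053560, chromosome 8, 84661331 to 84662852, minus strand), which encodes a small nuclear protein, had 44.0, 46.0, 44.7 and 39.8 CPM in induced libraries 1 to 4, against 54.1, 37.3, 38.9 and 42.3 CPM in control libraries 1 to 4. The groups overlapped and control 1 was the highest of all 8. The log2 fold change was 0.03 ± 0.12 (limma adjusted p = 0.91), and -0.01 under median-of-ratios and -0.02 under upper quartile scaling. *Ier3* (ENSMUSG00000003541, chromosome 17, 35821684 to 35822923, plus strand), known for its part in the survival of stressed cells, had 12.7, 12.5, 8.27 and 9.32 CPM in induced libraries 1 to 4. The control libraries had 7.67, 5.91, 7.42 and 9.67 CPM of *Ier3*. Induced libraries 1 and 2 lay above the controls, and induced 3 and 4 below control 4. For *Ier3* the log2 fold change was 0.48 ± 0.19, with a 95% interval of 0.06 to 0.89, an unadjusted p of 0.027 and a limma adjusted p of 0.15.

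Within the groups, the same libraries tended to be extreme for several of the genes. Induced 4 was the lowest induced library for 7 of the 9 genes, beside 30.2% of all genes, and it also had the least Bcl6. Control 1 was the highest control for 5 of the 9 genes (*Jun*, *Junb*, *Jund*, *Egr1* and *Ier2*), beside 39.5% of all genes. The median deviation of the 9 genes from the control mean was 0.60, 0.50, 0.40 and 0.27 (log2) in induced libraries 1 to 4, and 0.07, -0.13, -0.03 and -0.05 in control libraries 1 to 4. With 4 libraries in each group, no relation of these genes to the level of Bcl6 was tested.

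The order of the levels per kilobase was alike in both groups. *Ier2* was the highest, at 28.7 ± 1.76 CPM per kilobase in induced and 28.4 ± 4.97 in control libraries (SD, n = 4 each). In induced libraries *Jund* (17.1), *Jun* (16), *Junb* (12.4), *Ier3* (9.46), *Nr4a1* (8.07), *Egr1* (3.94), *Fos* (3.74) and *Fosl1* (0.901) followed. In control libraries the order was *Jun* (17.5), *Jund* (13.4), *Junb* (6.81), *Ier3* (6.78), *Nr4a1* (5.85), *Egr1* (3.81), *Fos* (2.54) and *Fosl1* (0.625). *Jun* and *Jund* thus changed places, and their ranges over libraries overlapped in both groups. The ranges of *Junb* and *Ier3*, and of *Ier3* and *Nr4a1*, also overlapped in both groups, and those of *Egr1* and *Fos* overlapped in induced libraries. In CPM over all libraries, 66.5% of genes had a lower mean than *Jun*, 24.2% a lower mean than *Fos* and 4.79% a lower mean than *Fosl1*.

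Other immediate early genes were taken from a list of 37, of which 33 were measured. Of these 33, 9 were higher and none lower at an adjusted p under 0.05, beside 4.55% of all genes called higher, and the median log2 fold change was 0.30. At an unadjusted p under 0.05, 17 were higher and 3 lower, beside 14.8% and 8.89% of all genes. Under median-of-ratios or upper quartile scaling 5 were higher and 2 lower. The 2 were *Myc*, a growth factor-induced transcription factor gene, and *Trib1*, a pseudokinase gene, with log2 fold changes of -0.43 and -0.35 under the median-of-ratios scaling, and they are named here after their values were seen. *Trib1* was also called lower without control 4 (limma adjusted p = 0.048), where 5 were higher. Every induced library was above every control for 14 of the 33 and below for 2, beside 10.8% and 6.32% of all genes. The smallest p belonged to *Csrnp1*, a nuclear protein gene induced by axin, which averaged 42.9 ± 4.73 CPM in induced and 22.5 ± 1.83 CPM in control libraries (SD, n = 4 each; log2 fold change 0.93 ± 0.10, limma adjusted p = 0.0015). *Fosl2*, the gene of the Fos relative Fra-2, averaged 18 ± 0.534 CPM in induced and 10.1 ± 1.44 CPM in control libraries (0.84 ± 0.12, limma adjusted p = 0.0034). *Sgk1*, a kinase gene induced by serum and glucocorticoids, averaged 152 ± 2.86 CPM in induced and 114 ± 5.26 CPM in control libraries (0.42 ± 0.06, limma adjusted p = 0.0044). *Klf6* (0.41 ± 0.07, limma adjusted p = 0.0092) and *Klf4* (0.52 ± 0.10, limma adjusted p = 0.012), both of zinc finger factors, were also higher, and *Klf4* is a pluripotency marker as well. These 5 were called without each library in turn. *Cyr61*, which encodes a secreted matrix protein, had a log2 fold change of 0.45 ± 0.11 (limma adjusted p = 0.040) and was not called without induced 1 (adjusted p = 0.14), induced 2 or control 2, 3 or 4. Of the relatives of *Egr1* and *Nr4a1* on the list, 3 were measured: *Nr4a2* had a log2 fold change of 0.46, *Nr4a3* of -0.03 and *Egr2* of -0.48. Of these 3 only *Nr4a2* was called, with a limma adjusted p of 0.0499, and its call was kept in 1 of 8 omissions (without control 1). *Nr4a3* and *Egr2* are named here after their values were seen.

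**Figure D4:**
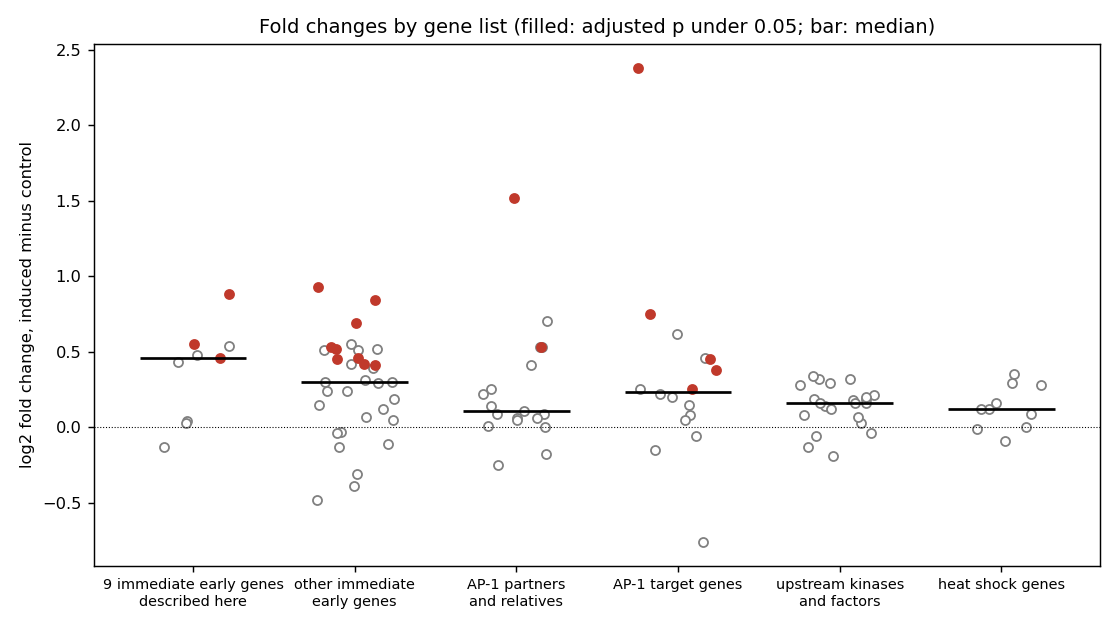
Log2 fold change (vertical axis, Bcl6-induced minus control) of each measured gene in the 9 immediate early genes and in 5 lists of related genes, with the median as a bar and called genes filled. The medians are 0.46 for the 9 genes, 0.30 for other immediate early genes, 0.11 for AP-1 partners, 0.24 for AP-1 targets, 0.16 for upstream genes and 0.12 for heat shock genes.

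Of the genes whose products pair with AP-1 proteins or belong to related factor families, 2 of 19 measured were higher and none lower (5 higher and none lower at an unadjusted p under 0.05), with a median log2 fold change of 0.11. Of all genes, 4.55% were called higher and 2.26% lower, and 14.8% were higher and 8.89% lower at that unadjusted threshold. *Cebpd*, an acute phase factor, averaged 11.5 ± 3.39 CPM in induced and 4.02 ± 1.32 CPM in control libraries (SD, n = 4 each; 1.52 ± 0.28, limma adjusted p = 0.011). *Mafk*, a small Maf factor, averaged 16.9 ± 0.832 CPM in induced and 11.9 ± 1.91 CPM in control libraries (0.53 ± 0.12, limma adjusted p = 0.030), and was called only without control 1 or control 4 among the omissions. None of 23 kinases and factors that act upstream of immediate early genes was called, with a median of 0.16 (8 higher and none lower at an unadjusted p under 0.05). None of 5 cofactor genes of Egr and Nr4a proteins was called (1 higher and 1 lower at an unadjusted p under 0.05), and none of 10 heat shock genes (1 higher and none lower), beside the same 14.8% and 8.89% of all genes. With array weights in limma, 3 upstream, 1 cofactor and 2 heat shock genes were called higher. Without control 1, 2 upstream and 2 heat shock genes were called higher. Removing the length and GC trend gave 2 upstream and 1 heat shock gene higher and 1 cofactor gene lower. With the replicate block added to that removal, 2 upstream and 1 heat shock gene were higher. A pseudocount of 10 or the minimum mean gave 1 upstream gene higher.

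Of 16 measured genes known as targets of AP-1 in other cells, 5 were higher and none lower, with a median of 0.24. Of all genes, 4.55% were called higher and 2.26% lower. At an unadjusted p under 0.05, 8 of the 16 were higher and 1 lower, beside 14.8% and 8.89% of all genes. *Mmp9*, a secreted matrix protease, had 5.86, 4.91, 6.41 and 4.26 CPM in induced libraries 1 to 4, against 0.651, 1.40, 0.853 and 1.15 CPM in control libraries 1 to 4. The groups were far apart, with a log2 fold change of 2.38 ± 0.26 and a limma adjusted p of 0.0012, from 44 to 88 reads per induced and 6 to 13 per control library. *Hbegf*, a ligand of the EGF receptor, averaged 20.0 ± 2.21 CPM in induced and 11.9 ± 1.90 CPM in control libraries (SD, n = 4 each; 0.75 ± 0.14, limma adjusted p = 0.011). Both were called without each library in turn. *Txnrd1*, a thioredoxin reductase (0.25 ± 0.06, limma adjusted p = 0.038), and *Spp1*, the matrix protein osteopontin (0.38 ± 0.10, limma adjusted p = 0.041), were also higher. Both calls were lost without induced 1 (adjusted p = 0.14 for *Txnrd1* and 0.15 for *Spp1*), induced 2, induced 3 or control 2, 3 or 4, and that of *Txnrd1* also without induced 4. Binding of AP-1 or Bcl6 at these genes was not measured here.

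Markers of several cell types differed between the same groups. The counts of markers are to be read beside the 4.55% of all genes called higher and 2.26% called lower. Of 10 progenitor markers, 1 was higher and 5 were lower, and their summed level was 1022 to 1355 CPM in induced and 1445 to 1846 CPM in control libraries. Of 10 neuronal markers, 6 were higher and none lower, with sums of 1412 to 1684 CPM in induced and 872 to 1069 CPM in control libraries. Of 8 epithelial and trophectoderm markers, 5 were higher and none lower (1050 to 1195 CPM in induced, 769 to 905 CPM in control libraries), and of 8 pluripotency markers 4 were higher and 1 lower (1856 to 2199 CPM in induced, 1983 to 2224 CPM in control libraries). Of 7 mesoderm and endothelium markers 1 was higher and 1 lower (123 to 138 CPM in induced, 79.4 to 98.1 CPM in control libraries), and of 8 endoderm markers none was higher and 1 lower (94.2 to 115 CPM in induced, 84.6 to 116 CPM in control libraries). Of 8 fibroblast markers none was called (1 higher and 3 lower at an unadjusted p under 0.05, beside 14.8% and 8.89% of all genes), with sums of 571 to 690 CPM in induced and 526 to 678 CPM in control libraries. No marker was at 0 in any library. In bulk RNA, fewer cells of a type and less RNA per cell cannot be told apart, and the part of these cell types in the values of the immediate early genes was not tested.

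The genes whose levels over the 8 libraries were most like those of *Fos* were *Ptk7*, *Pip4k2c*, *Tbc1d10b*, *Slc29a1* and *Nr4a2*, with Pearson r values of 0.993, 0.992, 0.989, 0.989 and 0.988 on the log2 scale, the highest among 13545 genes. The 8 points form 2 groups, so a difference between the groups alone gives a high r, and these values are a description. Of the 5, *Ptk7* was not called (log2 fold change 0.19 ± 0.06, limma adjusted p = 0.070), and *Pip4k2c*, *Tbc1d10b* and *Slc29a1* had fold changes of 0.51, 0.35 and 0.65, with limma adjusted p values of 0.0088, 0.020 and 0.0027. By the same measure the r of *Fos* was 0.91 with *Junb*, 0.88 with *Nr4a1* and 0.80 with *Ier3*. It was 0.69 with *Fosl1*, 0.65 with *Jund*, 0.27 with *Ier2*, 0.12 with *Egr1* and -0.17 with *Jun*.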

How the data were processed

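RNA from 4 Bcl6-induced and 4 control cultures was measured by RNA-seq with a stranded TruSeq kit on poly(A) RNA, per the labels' protocols. The submitters' processing notes name STAR 2.5.3a, HTSeq 0.9.1, edgeR 3.20.1 and mm10, with no role or order. The authors deposited 1 table of 14954 genes whose values are a score: whole numbers that sum to 19.93 to 19.96 M in every library. Among low values, 99.75% to 100% lie on multiples of a library's own step, as reads scaled to a common size and rounded up would. The rounded multiple had to equal the value exactly, and 47.2% to 75.3% would do so by chance. Higher values were not part of this check. Read numbers are values over the step. Decimal commas had split the lines into cells, which were rejoined, and the *Bcl6* line was shifted by 2 cells. All 14954 lines then matched their own CPM.

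CPM is the value over the library total. The values were tested with limma 3.58.1 (R 4.3.3) with a variance trend on log2(value + 1), a pseudocount of 1, without a covariate or filter on low values, and Benjamini-Hochberg adjustment over all 14954 genes. The lowest gene mean was 15.1 scaled reads. Fold changes are on this log2 scale of the deposited values and understate those of genes with few reads. A gene was called at an adjusted p under 0.05. The plan named edgeR for raw counts, which these were not. Lengths and coordinates come from GENCODE M21 (mm10). Promoters come from RefSeq and were matched by symbol for 7 of the 10 genes.

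The genes named are the 10 immediate early genes, Bcl6, up to 6 called genes of each list of related genes by smallest p, the 5 genes most like *Fos* above a floor of 1 on the mean log2 CPM, and, added, the overlapping genes. Some items that this rule names are not reported here. The genes and lists were chosen with earlier results of these data known. The test was checked on simulated data. Alternatives were other pseudocounts, a minimum mean, other scalings, no variance trend, array weights, a replicate block, removal of length and GC trends, and leaving out each library.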

Additional observations from a re-analysis of the deposited data

Results flagged for a closer look

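Within groups of 4 libraries, 6 of 90 sets of values had a library past Dixon's 95% critical value. The measure was the gap to the nearest other library divided by the range of the group. Chance flags about 1 in 20 such groups. *Junb* had 18 CPM in induced 4, with the other induced libraries at 23.6 to 24.2. *Csrnp1* had 35.8 CPM in the same library, with the others at 44.3 to 45.9. *Egr1* had 21.4 CPM in induced 3, with the others at 16.2 to 16.5. *Jund* had 36.5 CPM in control 1, with the other controls at 16.9 to 18.9. The summed endoderm markers had 94.2 CPM in induced 3, with the other induced libraries at 112 to 115, and the summed fibroblast markers had 678 CPM in control 4, with the other controls at 526 to 547.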

How the results depend on the processing

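Of the 9 genes, *Junb* was called under every setting run. *Nr4a1* was called under all 10 settings that kept the 8 libraries, and *Fos* under 9 of them. With the differentiation number as a replicate block 2 of the 9 genes were called, *Fos* having an adjusted p of 0.063. Same-numbered libraries had correlations of 0.0302, 0.011, -0.0282 and 0.374 in their deviations from the group means over 11869 genes. Differently numbered libraries had correlations of -0.317 to 0.321. With 4 libraries in each group, these correlations cannot show whether same-numbered libraries were paired. With the block, 827 genes were called, 531 higher and 296 lower. The main test called 1019, 681 higher and 338 lower. Median-of-ratios scaling gave 536 higher and 424 lower, and upper quartile scaling 501 and 474; both gave 5 higher and 2 lower of the other immediate early genes. *Cyr61*, *Txnrd1*, *Spp1* and *Nr4a2* were not called under either of these scalings. Without the variance trend 472 were higher and 225 lower, with the cause not tested. Array weights gave 2507 calls (1643 higher, 864 lower), 15 of the 33 other immediate early genes higher and 2 lower (17 in all, in place of 9 higher), and *Jund* was called (adjusted p = 0.0048). Removing the length and GC trend gave 1957 (1260 and 697; 14 higher and 2 lower of the 33, 16 in all), and doing so with the replicate block, an alternative chosen after seeing the data, gave 1895 (1174 and 721; 12 higher and 2 lower of the 33, 14 in all), with *Jund* called (0.043). Leaving out 1 library gave 308 (without induced 1) to 1697 (without control 1) calls, 211 to 1146 higher and 93 to 551 lower. Of the 9 genes 1 to 4 were then called, and of the other immediate early genes 5 to 13. The causes of these differences were not tested. Genes that were not called changed sign: *Jun* had 0.01 with array weights. *Egr1* had -0.02 with upper quartile scaling, -0.04 with length and GC trends removed, with or without the block, and -0.06 (without induced 3) to 0.07 when 1 library was left out. *Ier2* had -0.01 with median-of-ratios and -0.02 with upper quartile scaling, and -0.04 (without control 2) to 0.14 when 1 library was left out, with -0.02 without control 3. The edgeR test on recovered reads was not run, since the deposited values did not pass as whole reads. *Fosl1* had the fewest reads, 7 to 27 per library.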
